A study of Mus musculus with 4 samples.

Results

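The 10 genes described here are the D cyclin genes Ccnd1, Ccnd2 and Ccnd3, the E cyclin genes Ccne1 and Ccne2, the A cyclin gene Ccna2, the kinase genes Cdk2, Cdk4 and Cdk6, and the phosphatase gene Cdc25a. They were taken by symbol from 23366 genes in an RNA-seq table of mouse fibroblasts. All 10 were found and all 10 averaged at least 1 FPKM, a level that counts sequenced fragments per length of transcript and relative to all fragments of the library. With 310 small RNA genes left out, 11640 genes in all did so. The fibroblasts were immortalized cells derived from mouse embryos and kept in medium with serum. Separate cultures carried Myc, MycN, a protein the labels name Minimal Myc, or an empty vector. Every culture, the empty vector one included, was given Cre recombinase by adenovirus, and harvest came after a recovery of 48, for which no unit is stated. Per the series design the comparison is between cells from which Myc was deleted and cells that contain one of the 3 proteins. There was 1 library per group, so no difference below has a replicate check, no test was run and no p-value or error is given. The labels do not say whether the 4 cultures came from 1 line.

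These genes run the passage through G1, the phase before DNA synthesis. D cyclins are made in answer to growth factors and activate Cdk4 and Cdk6, which begin to phosphorylate the retinoblastoma protein. Cyclin E with Cdk2 carries that phosphorylation on, E2f transcription factors are freed, and cyclin A with Cdk2 then acts in S phase. Cdc25a removes inhibitory phosphates from these kinases. Myc and MycN bind DNA with their partner Max, preferring the letters CACGTG (the E-box), and Ccnd2 and Cdk4 are among the genes widely described as direct Myc targets.

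Depth is unknown because FPKM hold no read numbers. Myc itself stood at 141 FPKM in Myc, 4.36 in MycN, 32.6 in Minimal Myc and 22.2 in vector, and Mycn at 0.275, 178, 95.9 and 0.390 FPKM in the same libraries. The vector library is therefore not shown here to lack Myc. All 10 fibroblast markers averaged over 1 FPKM, the lowest being Pdgfrb at 27.7, whereas 0 of 5 epithelial and 0 of 5 endothelial markers did; of 5 immune markers 2 did, and the summed immune level was 2.94 to 8.09 FPKM over the 3 Myc protein libraries and 4.65 in vector. In bulk RNA fewer cells of a kind and less RNA per cell cannot be told apart, and the share of cells in each phase was not analysed here.

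The promoters are shown because the E-box letters were spread unevenly among the members. RefSeq promoters of the build GRCm38.p6, a later build than the mm9 named for the expression data, were matched by symbol for 6 of the 10 members, with 7 start sites. Ccnd1, Ccnd2, Ccne2 and Ccna2 were not matched. The 250 bases before each start site were searched on both strands for CACGTG and for TTGGCGC and TTCCCGC, letters of the kind that E2f factors bind. CACGTG, which reads the same on both strands, occurred in Cdk4 and Cdk6 and in 6.02% of 32851 promoters of the same length. Cdk4 held 4 of them, beginning 172, 118, 98 and 11 bases before the start site, and only 7 promoters in the table (0.0213%) held that many or more. The first pair of lines below gives chr10:127063285-127063534 (plus strand) and chr5:3343643-3343892 (plus strand), 5′ to 3′, with the E-box letters in capitals.
Cdk4: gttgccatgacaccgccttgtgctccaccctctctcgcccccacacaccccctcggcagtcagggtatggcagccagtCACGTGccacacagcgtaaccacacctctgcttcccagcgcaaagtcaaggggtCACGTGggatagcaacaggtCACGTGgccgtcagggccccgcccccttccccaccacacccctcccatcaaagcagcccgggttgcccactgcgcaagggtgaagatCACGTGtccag
Cdk6: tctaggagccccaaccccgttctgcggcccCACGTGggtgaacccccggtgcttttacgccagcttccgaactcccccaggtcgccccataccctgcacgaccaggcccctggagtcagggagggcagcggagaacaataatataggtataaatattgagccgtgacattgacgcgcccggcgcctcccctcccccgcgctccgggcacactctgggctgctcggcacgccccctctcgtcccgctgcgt
The E2f letters occurred in Cdc25a and Cdk2 and in 5.62% of all promoters. In Cdc25a a match on each strand overlapped, beginning 66 and 63 bases before the start site, and Cdk2 had matches at 140 and 10 bases. The following lines give chr9:109875329-109875578 (plus strand) and chr10:128705052-128705301 (minus strand), with these letters in capitals.
Cdc25a: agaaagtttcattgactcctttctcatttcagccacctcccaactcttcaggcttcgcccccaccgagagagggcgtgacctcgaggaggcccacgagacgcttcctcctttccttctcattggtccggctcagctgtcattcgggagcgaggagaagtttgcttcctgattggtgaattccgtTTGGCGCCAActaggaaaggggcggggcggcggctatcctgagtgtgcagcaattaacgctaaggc
Cdk2: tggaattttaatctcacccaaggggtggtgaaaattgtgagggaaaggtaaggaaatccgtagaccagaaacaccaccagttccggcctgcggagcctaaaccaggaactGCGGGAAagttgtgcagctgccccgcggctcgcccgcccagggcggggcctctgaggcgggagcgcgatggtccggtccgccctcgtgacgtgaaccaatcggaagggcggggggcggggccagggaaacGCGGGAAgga
Ccne1 and both start sites of Ccnd3 had neither motif in these 250 bases. A match is a description of the letters and was not tested as a binding site.

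The members spanned a wide range of levels, and the rank among them was led by Cdk4 in every library. Cdk4 stood above 98.0% to 98.5% of the 11640 genes in the Myc protein libraries and above 98.2% in vector. The lowest member was Ccne2 in Myc, MycN and vector, at 9.93, 7.72 and 4.52 FPKM, and Cdk6 in Minimal Myc, at 7.18 FPKM. Across the 4 libraries the highest level of a member was 1.69 times (Ccna2) to 2.37 times (Cdc25a) its lowest. Vector had the lowest level of 8 members, all but Ccnd1 and Cdk6, whose lowest level was in Minimal Myc; these orders are of unscaled FPKM, and the members that lie on the other side of vector under another scaling are named with the differences below.

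**Figure D1:**
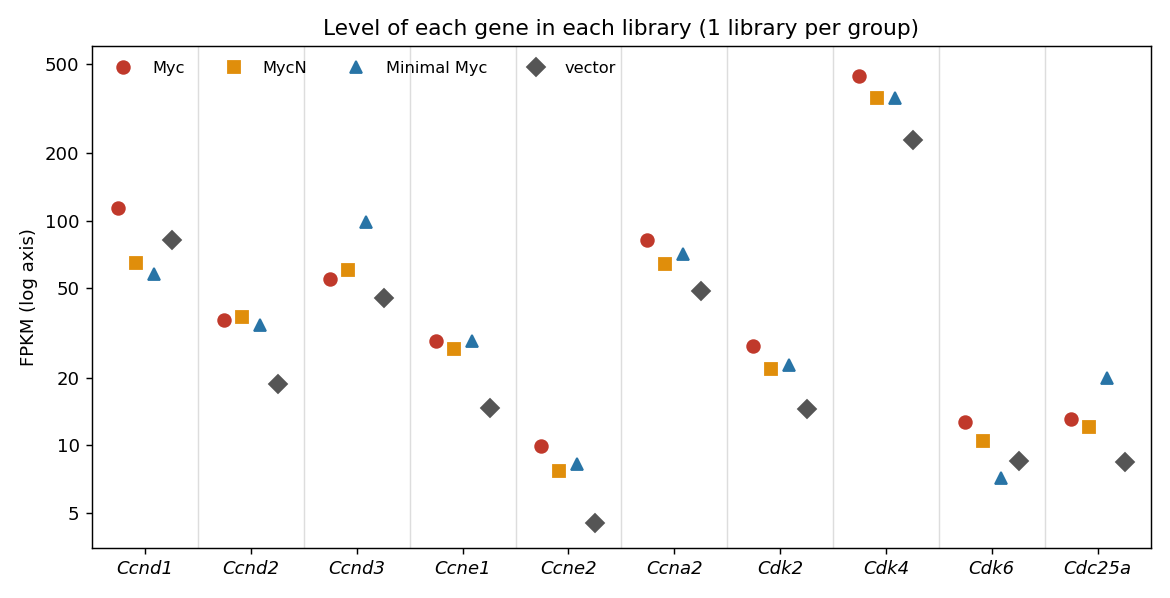
FPKM of each of the 10 genes on a log axis, with 1 point per library for Myc, MycN, Minimal Myc and vector. Cdk4 lies between 229 and 439 FPKM, far above the other kinases, and the vector point is the lowest for every gene except Ccnd1 and Cdk6.

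The D cyclins did not share a profile. Ccnd1, the D cyclin most tied to growth factor and integrin signals, was 114 FPKM in Myc, 65.0 in MycN, 57.7 in Minimal Myc and 81.9 in vector. On unscaled FPKM the Myc library was thus the highest and Minimal Myc the lowest, with vector between Myc and MycN. Ccnd2 was 36.0 FPKM in Myc, 37.2 in MycN, 34.2 in Minimal Myc and 18.7 in vector, so the libraries with a Myc protein lay close to each other and above vector. Ccnd3, which is widely expressed and is needed in lymphocyte growth, was 55.2 FPKM in Myc, 60.3 in MycN, 98.4 in Minimal Myc and 45.5 in vector. Its 2 identifier rows, for different transcripts, carry identical values and count once. Minimal Myc stood apart for Ccnd3 on unscaled FPKM, while Myc, MycN and vector lay within 1.33-fold of each other. Multiplied by the library factors given below, Ccnd3 was 113 in Myc, 78.4 in MycN, 126 in Minimal Myc and 45.5 in vector. There Myc was near Minimal Myc.

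Because FPKM are per length, the D cyclins can be set against each other within a library, and such a share is not altered by any factor applied to a whole library. Of the summed D cyclin FPKM, Ccnd1 made up 55.6% in Myc, 40.0% in MycN, 30.3% in Minimal Myc and 56.1% in vector. Ccnd3 made up 26.9% in Myc, 37.1% in MycN, 51.7% in Minimal Myc and 31.1% in vector. Ccnd1 was the leading D cyclin in Myc, MycN and vector, and Ccnd3 in Minimal Myc. The share of Ccnd2 was 17.6% in Myc, 22.9% in MycN, 18.0% in Minimal Myc and 12.8% in vector. The sum itself was 205 FPKM in Myc, 163 in MycN, 190 in Minimal Myc and 146 in vector. The unscaled sum was thus above vector in each library with a Myc protein, although its make-up differed. All 11640 genes together were also lower in vector, at 325658 FPKM against 447405 to 524372 FPKM with a Myc protein. Whether the D cyclin sum stays above vector relative to all genes was not tested.

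**Figure D2:**
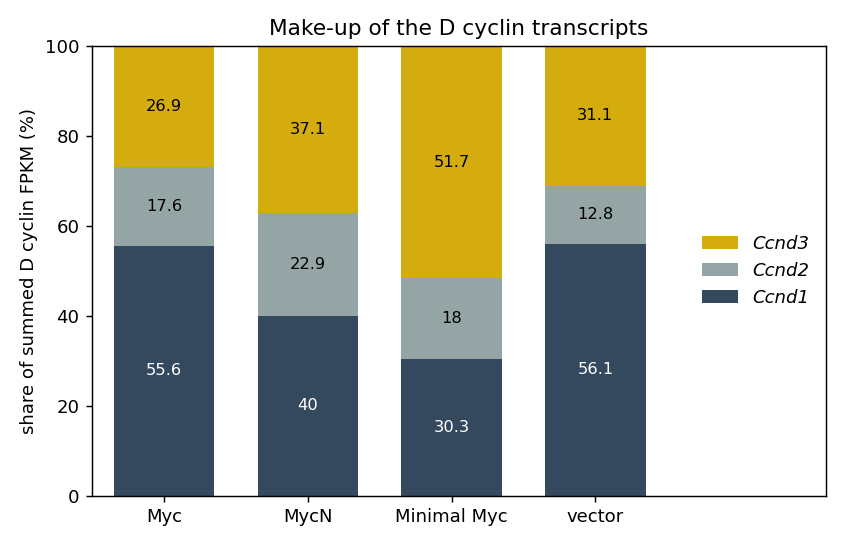
Share of Ccnd1, Ccnd2 and Ccnd3 in the summed D cyclin FPKM of each library, in percent, with 1 bar per library and the value printed in each segment. Ccnd1 takes 55.6% in Myc and 56.1% in vector but 30.3% in Minimal Myc, where Ccnd3 takes 51.7%.

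Of the kinases that D cyclins activate, Cdk4 was 439 FPKM in Myc, 352 in MycN, 351 in Minimal Myc and 229 in vector. On unscaled FPKM MycN and Minimal Myc were nearly equal, with Myc above and vector below them. Cdk6 was 12.6 FPKM in Myc, 10.5 in MycN, 7.18 in Minimal Myc and 8.48 in vector, so on unscaled FPKM Minimal Myc was the one library with a Myc protein below vector; this side of vector depended on the scaling in Myc, MycN and Minimal Myc alike, as given with the differences below. Cdk4 outweighed Cdk6 by 34.7 times in Myc, 33.5 times in MycN, 48.9 times in Minimal Myc and 27.1 times in vector. The sum of the D cyclins was below the level of Cdk4 in every library: Cdk4 was 2.14 times that sum in Myc, 2.16 times in MycN, 1.84 times in Minimal Myc and 1.57 times in vector.

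Cdk4 and Ccnd2 were also read by NanoString, which counts RNA molecules by hybridized probes without amplification; the authors deposited this signal for 30 genes in the same library columns. The NanoString signal of Cdk4 was 23545 in Myc, 11234 in MycN, 12656 in Minimal Myc and 10488 in vector. This put Myc at 2.25 times vector, but MycN at only 1.07 times and Minimal Myc at 1.21 times, against 1.91, 1.53 and 1.53 times by FPKM. The signal of Ccnd2 was 5423 in Myc, 5632 in MycN, 5033 in Minimal Myc and 3351 in vector, or 1.62, 1.68 and 1.502 times vector, against 1.93, 1.99 and 1.83 times by FPKM. The assays thus gave the same order of libraries for Ccnd2 and both put Myc highest for Cdk4, and they differed most in the size of the Cdk4 ratio in MycN. FPKM are relative to the library total and the normalization of the NanoString signal is not given. The sizes of these ratios may therefore stand on unlike scales. Over all 30 genes the median NanoString ratio to vector was 2.04 with Myc, 1.28 with MycN and 1.23 with Minimal Myc. Cdk4 lay above that median in Myc and below it in MycN and Minimal Myc, and Ccnd2 lay the other way round.

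In the authors' second table each library was multiplied by 1 factor, which was 2.04 for Myc, 1.30 for MycN, 1.28 for Minimal Myc and 1 for vector. There Cdk4 was 3.90 times vector with Myc, 1.99 times with MycN and 1.96 times with Minimal Myc. Each of these is the FPKM ratio times the factor, and each exceeded the NanoString ratio of the same gene. So did the scaled ratios of Ccnd2, at 3.93 with Myc, 2.59 with MycN and 2.35 with Minimal Myc. The factors were close to the median NanoString ratios of 2.04 with Myc, 1.28 with MycN and 1.23 with Minimal Myc. The scaled values are therefore not taken as a reading separate from FPKM and NanoString. The ratio of Cdk4 to Ccnd2, free of any factor per library, was 4.34 in Myc, 1.99 in MycN, 2.51 in Minimal Myc and 3.13 in vector by NanoString. By FPKM it was 12.2 in Myc, 9.45 in MycN, 10.3 in Minimal Myc and 12.3 in vector. NanoString therefore placed Myc above vector on this ratio and FPKM did not.

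**Figure D3:**
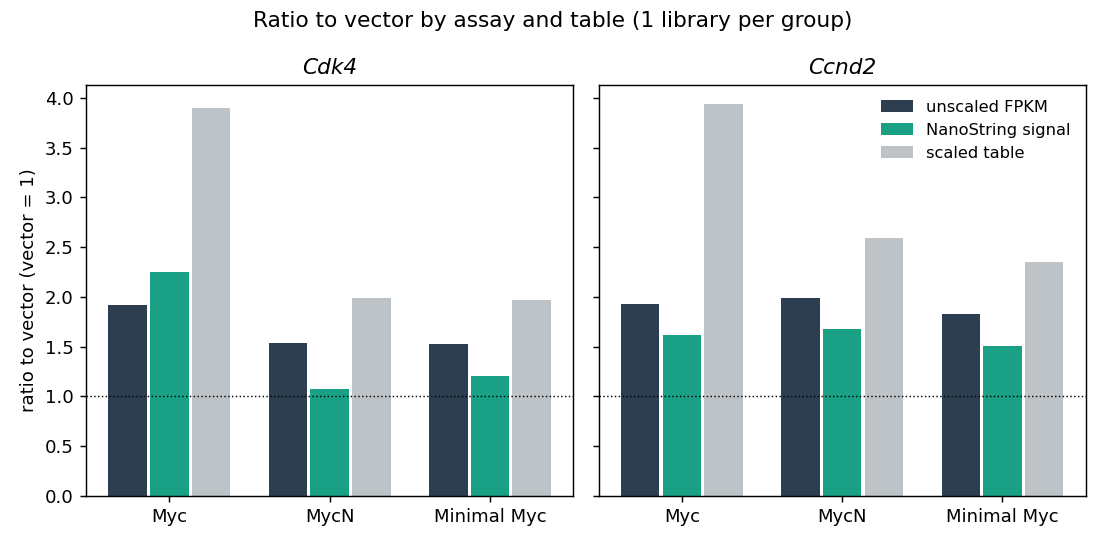
Ratio to vector of Cdk4 and Ccnd2 in the Myc, MycN and Minimal Myc libraries by unscaled FPKM, by NanoString signal and in the authors' scaled table, with a dotted line at vector. For Cdk4 the NanoString bars read 2.25 with Myc, 1.07 with MycN and 1.21 with Minimal Myc, and every scaled bar is taller than the NanoString bar beside it. A scaled bar is the unscaled FPKM bar multiplied by the factor of its library.

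The genes that act at the G1 to S boundary had profiles much like each other, and like those of many other genes: 355 of 11639 genes lay within 0.1 of Ccne1, 550 of Ccne2, 746 of Ccna2 and 695 of Cdk2, by the distance defined below. Ccne1, an activator of Cdk2, was 29.0 FPKM in Myc, 26.8 in MycN, 29.0 in Minimal Myc and 14.7 in vector. Ccne2, its relative with the same partner, was 9.93 FPKM in Myc, 7.72 in MycN, 8.24 in Minimal Myc and 4.52 in vector, from 2 rows with identical values. In both genes the 3 libraries with a Myc protein lay above vector, by 1.71 to 2.20 times, and differed among themselves by less. Cdk2 was 27.6 FPKM in Myc, 22.0 in MycN, 22.9 in Minimal Myc and 14.5 in vector. Ccna2, whose product acts with Cdk2 in S phase and with Cdk1 later, was 81.9 FPKM in Myc, 64.1 in MycN, 70.7 in Minimal Myc and 48.5 in vector. On unscaled FPKM Myc was highest and vector lowest for Cdk2 and Ccna2 alike. Centred on housekeeping genes, MycN was above Myc for Cdk2 and Ccna2, at 0.04 and 0.01 on the log2 scale. Minimal Myc was then below vector, at -0.14 and -0.23. Within a library Ccne1 was 2.92 times Ccne2 in Myc, 3.48 times in MycN, 3.52 times in Minimal Myc and 3.24 times in vector. The summed E cyclins were 0.190 of the summed D cyclins in Myc, 0.213 in MycN, 0.196 in Minimal Myc and 0.131 in vector, so the balance of E to D cyclin transcripts was lowest in vector.

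Cdc25a was 13.2 FPKM in Myc, 12.0 in MycN, 19.9 in Minimal Myc and 8.40 in vector. On unscaled FPKM it had its highest level in Minimal Myc, like Ccnd3, and Myc and MycN lay close together above vector. Centred on housekeeping genes, Myc was below vector, at -0.12 on the log2 scale. Multiplied by the library factors, Cdc25a was highest in Myc, at 26.8, with Minimal Myc at 25.6. Set against Cdk2, a kinase its product activates, it was 0.477 of the Cdk2 level in Myc, 0.547 in MycN, 0.871 in Minimal Myc and 0.578 in vector. Set against Cdc25b, the family member best known for its part in entry to mitosis, it was 0.375 in Myc, 0.299 in MycN, 0.838 in Minimal Myc and 0.327 in vector. Minimal Myc stood apart on both ratios, neither of which a factor per library can alter.

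Differences from vector were taken on log2(FPKM + 1), a scale that understates those of low genes, and set beside all 11640 genes, since FPKM are relative to the library total. The comparisons with vector all share that 1 library. The kept genes summed to 447405 to 524372 FPKM in the Myc protein libraries, against 325658 FPKM in vector. Mir5109, a small RNA gene left out here, held 6331 FPKM with Myc, 26320 with MycN and 7680 with Minimal Myc, against 185861 FPKM in vector. The part of this in the differences was not tested. The median difference of all genes was 0.47 with Myc, 0.42 with MycN and 0.47 with Minimal Myc. The median of the 10 members was 0.81 with Myc, 0.52 with MycN and 0.68 with Minimal Myc. Of the 10 members, 10 lay above 0 with Myc, 9 with MycN and 8 with Minimal Myc, where 83.5%, 81.8% and 83.0% of all genes did. Relative to the median of all genes, 9 members were above it with Myc, 6 with MycN and 8 with Minimal Myc.

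At 2-fold, 0 of 10 members were higher in Myc than in vector, where 11.2% of all genes were, and 0 were lower, where 1.56% were. In MycN 0 members were higher, beside 7.65% of all genes, and 0 lower, beside 1.86%. In Minimal Myc 2 members were higher, beside 13.6% of all genes, and 0 lower, beside 1.68%. Those 2 were Cdc25a, at 1.15 on the log2 scale, and Ccnd3, at 1.10. In Myc the largest difference was that of Ccne2, at 0.99, just inside 2-fold, followed by Ccne1 at 0.94 and Cdk4 at 0.93. In MycN it was that of Ccnd2, at 0.96. At 1.5-fold the counts were 7 of 10 higher in Myc, beside 39.4% of all genes, 4 in MycN, beside 33.2%, and 7 in Minimal Myc, beside 40.2%. No member was lower by 1.5-fold in Myc, MycN or Minimal Myc, where 3.88%, 4.13% and 4.06% of all genes were.

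In the authors' scaled table all 10 members were at least 2-fold higher in Myc than in vector, as were 78.5% of all genes. There 2 members were in MycN, beside 27.4% of all genes, and 5 in Minimal Myc, beside 33.7%. The number of members called is therefore set largely by the scaling of the library. Across 4 scalings (unscaled, centred on the median of all genes, centred on the median of 26 housekeeping genes, and the scaled table), Ccnd2 and Ccne1 lay above vector in Myc, MycN and Minimal Myc every time. Ccne2, Cdk2 and Cdk4 did so in Myc and MycN, and lay on the other side of 0 in Minimal Myc when centred on housekeeping genes, at -0.02, -0.14 and -0.15. Ccna2 was above vector under all 4 in Myc alone. Ccna2 lay at -0.02 in MycN when centred on all genes and at -0.23 in Minimal Myc when centred on housekeeping genes. Cdc25a was above vector under all 4 in MycN and Minimal Myc, at 0.05 and 0.68 when centred on all genes, but at -0.12 in Myc when centred on housekeeping genes. Ccnd3 was above vector under all 4 in Minimal Myc alone, at 0.62 when centred on all genes. Centred on all genes it lay at -0.20 in Myc and -0.02 in MycN, and centred on housekeeping genes at -0.44 in Myc.

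Ccnd1 stood apart from most members. It lay below vector in Minimal Myc under all 4 scalings, at -0.50 unscaled, -0.97 centred on all genes, -1.26 centred on housekeeping genes and -0.14 in the scaled table. In MycN it was -0.33 unscaled and -0.75 centred on all genes, but 0.05 in the scaled table. In Myc it was 0.47 unscaled, the same as the median of all genes, and -0.24 when centred on housekeeping genes. Unscaled, 5.01% of all genes had a lower difference than Ccnd1 in Minimal Myc and 7.75% in MycN. Cdk6 was below vector in Minimal Myc at -0.21 unscaled and -0.69 centred on all genes, but 0.11 in the scaled table. It was 0.52 in Myc and 0.28 in MycN unscaled, but -0.19 in Myc and -0.05 in MycN when centred on housekeeping genes, and -0.14 in MycN when centred on all genes. Unscaled, 9.68% of genes had a lower difference than Cdk6 in Minimal Myc.

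**Figure D4:**
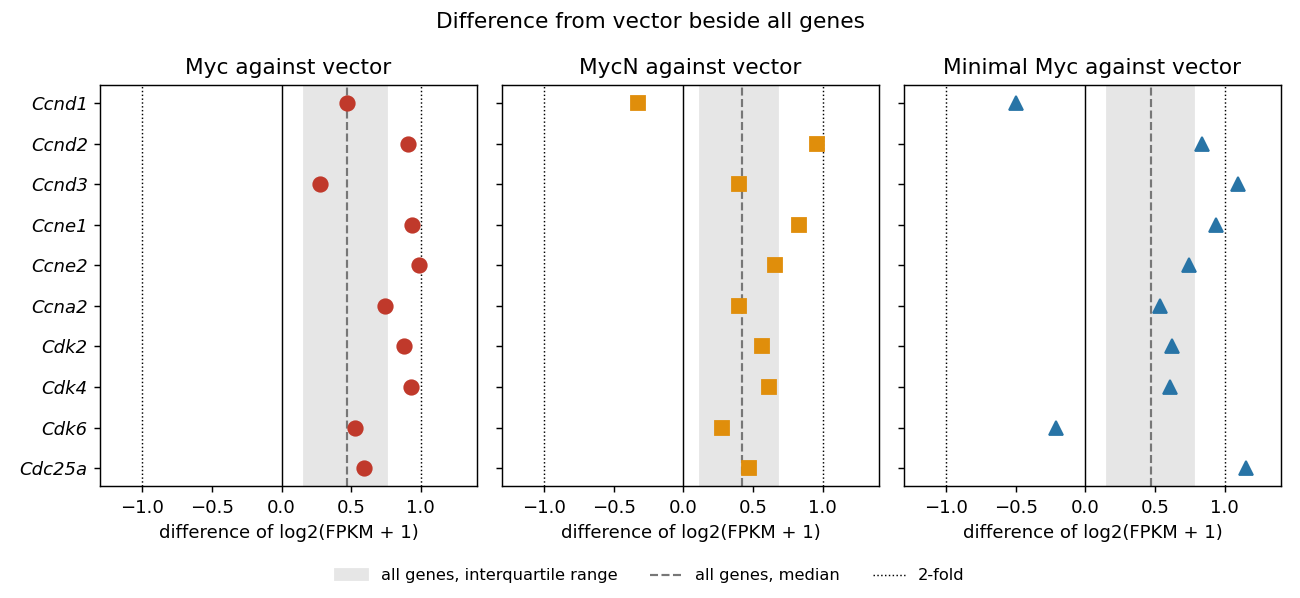
Difference from vector of each gene on log2(FPKM + 1), unscaled, with 1 panel each for Myc, MycN and Minimal Myc. The dashed line is the median of all 11640 genes (0.47, 0.42 and 0.47), the grey band their interquartile range, and the dotted lines mark 2-fold; Ccnd3 and Cdc25a pass 2-fold in Minimal Myc and Ccnd1 lies below 0 in MycN, though not in the scaled table, and in Minimal Myc.

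Between the Myc proteins the comparison does not rest on the vector library. MycN against Myc had 0 of 10 members at least 2-fold higher, beside 1.95% of all genes, and 0 lower, beside 2.74%. At 1.5-fold, 1 member was lower, beside 9.58% of all genes. It was Ccnd1, at 65.0 FPKM in MycN and 114 in Myc, a difference of -0.80, and the only member below Myc under all 4 scalings. The other 9 members lay above or below Myc depending on the scaling. Their unscaled differences ran between -0.35 for Ccna2 and 0.13 for Ccnd3, around a median of all genes of -0.06. By the scaled values 1 member was at least 2-fold lower in MycN than in Myc, again Ccnd1, beside 20.2% of all genes. NanoString gave a ratio of MycN to Myc of 0.477 for Cdk4, against 0.801 by FPKM, and of 1.04 for Ccnd2, against 1.03 by FPKM.

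Minimal Myc against Myc had 0 members at least 2-fold higher, beside 4.48% of all genes, and 0 lower, beside 2.16%. At 1.5-fold 1 was higher, beside 10.4%, and 2 were lower, beside 7.47%. Ccnd3 was the higher one, at 98.4 FPKM in Minimal Myc and 55.2 in Myc, a difference of 0.82. Ccnd1, at 57.7 FPKM in Minimal Myc and 114 in Myc, differed by -0.97, and Cdk6, at 7.18 FPKM in Minimal Myc and 12.6 in Myc, by -0.74. In all, 8 of the 10 members kept their direction under all 4 scalings, these 3 among them. Ccnd2, Ccne2, Ccna2, Cdk2 and Cdk4 were the others, each lower than in Myc. Only centring on all genes, whose median was -0.03, raises these differences, and the other scalings lower them. A gene lower than in Myc unscaled, as 52.6% of all genes were, thus nearly always stays lower by construction. The share of all genes that kept their direction was not counted. The difference of Ccnd3 was only 0.17 in the scaled table. By the scaled values 2 members, Ccnd1 and Cdk6, were at least 2-fold lower in Minimal Myc than in Myc, beside 17.7% of all genes. Cdc25a was 0.56 above Myc unscaled and 0.59 when centred on all genes, but -0.07 in the scaled table. NanoString gave a ratio of Minimal Myc to Myc of 0.538 for Cdk4 and 0.928 for Ccnd2, against 0.799 and 0.949 by FPKM.

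Minimal Myc against MycN had 0 members at least 2-fold higher, beside 6.94% of all genes, and 0 lower, beside 3.69%. At 1.5-fold 2 members were higher, beside 16.9% of all genes. These were Ccnd3, at 98.4 FPKM in Minimal Myc and 60.3 in MycN, and Cdc25a, at 19.9 FPKM in Minimal Myc and 12.0 in MycN. Both were above MycN under all 4 scalings, and Cdk6 was below it under all 4, at -0.49 unscaled. Ccnd1, Ccnd2 and Cdk4 were also below MycN under all 4, at -0.17, -0.12 and -0.003 unscaled. In this comparison any gene below MycN unscaled, as 46.7% of all genes were, stays below under the other scalings by construction. Being below under all 4 therefore adds nothing to the unscaled differences of Cdk6, Ccnd1, Ccnd2 and Cdk4. Ccne1, Ccne2, Ccna2 and Cdk2 were between 0.06 and 0.14 above MycN unscaled and on the other side of 0 when centred on housekeeping genes, whose median was 0.40 higher in Minimal Myc than in MycN.

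The likeness of profiles over the 4 libraries was measured as the root mean square distance of log2(FPKM + 1), each gene centred on its own mean. Among the 45 pairs of members the closest were Cdk2 and Cdk4, at 0.03, then Ccne2 with Cdk2 and with Cdk4, both at 0.05. Such closeness was common for these profiles, with 695, 596 and 550 of 11639 genes within 0.1 of Cdk2, Cdk4 and Ccne2. Farthest apart were Ccnd1 and Ccnd3, at 0.70. Ccnd3 was closest to Cdc25a, at 0.12, and Ccnd1 to Cdk6, at 0.24. Among all other genes that passed the filter, those nearest to Ccnd3 were Ptpn14, Socs5 and Vamp4, at 0.02, 0.03 and 0.03. Nearest to Cdc25a were Atox1, Lbr and Erp44, at 0.03 each. With 4 points near profiles are found for these as well: 86 of 11639 genes lay within 0.1 of Ccnd3 and 185 of 11639 within 0.1 of Cdc25a.

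Of 18 other genes for cyclins, kinases and their activators 15 passed the filter. On unscaled FPKM 15 of them lay above vector with Myc, 14 with MycN and 13 with Minimal Myc, as did 83.5%, 81.8% and 83.0% of all genes. Above the median of all genes lay 12, 9 and 10. Of these, 2 were at least 2-fold higher with Myc, 2 with MycN and 1 with Minimal Myc, beside 11.2%, 7.65% and 13.6% of all genes, and 0 were lower. Their median differences were 0.80, 0.51 and 0.64, beside 0.47, 0.42 and 0.47 for all genes. Ccnb1, the mitotic cyclin, was 92.1 FPKM in Myc, 67.1 in MycN, 64.5 in Minimal Myc and 41.6 in vector. Ccnb2, the other main mitotic cyclin, was 75.0 FPKM in Myc, 82.2 in MycN, 57.0 in Minimal Myc and 28.8 in vector. Cdk1, the kinase of mitosis, was 79.2 FPKM in Myc, 60.6 in MycN, 91.3 in Minimal Myc and 44.9 in vector. Ccng2, a cyclin tied to cell cycle arrest, was 14.6 FPKM in Myc, 19.5 in MycN, 6.78 in Minimal Myc and 7.39 in vector. On unscaled FPKM Minimal Myc thus lay nearer to vector than to the others. Ccna1, the A cyclin of the germ line, stayed at or under 0.0217 FPKM in every library.

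Of 9 genes for Cdk inhibitors, which restrain these kinases, 8 passed the filter. In Myc 1 was at least 2-fold higher and 1 lower, beside 11.2% and 1.56% of all genes. In MycN 2 were higher and 0 lower, beside 7.65% and 1.86%, and in Minimal Myc 2 were higher and 1 lower, beside 13.6% and 1.68%. Their medians were 0.41, 0.35 and 0.36, below those of all genes. Cdkn1a, which encodes the p53-induced inhibitor p21, was 9.92 FPKM in Myc, 16.5 in MycN, 8.18 in Minimal Myc and 25.0 in vector. Vector held its highest level, opposite to Ccnd2, Ccne1 and Cdk4, and Ccnd1 was 11.5 times Cdkn1a in Myc, 3.94 times in MycN, 7.06 times in Minimal Myc and 3.27 times in vector. Cdkn1b, the gene of p27, an inhibitor of cyclin E with Cdk2, was 28.3 FPKM in Myc, 39.6 in MycN, 16.7 in Minimal Myc and 13.8 in vector. Cdkn2a, a locus for the Cdk4 and Cdk6 inhibitor p16 and for Arf, was 536 FPKM in Myc, 543 in MycN, 737 in Minimal Myc and 227 in vector; its rows carry identical values, so these products cannot be told apart. Cdkn2b, the neighbouring inhibitor of Cdk4 and Cdk6, was 31.5 FPKM in Myc, 24.6 in MycN, 70.5 in Minimal Myc and 21.6 in vector, and thus stood apart in Minimal Myc.

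Downstream, all 13 genes of the Rb and E2f list passed the filter. In Myc, MycN and Minimal Myc 0 of them differed by 2-fold from vector. Of all genes 11.2%, 7.65% and 13.6% were higher by that much, and 1.56%, 1.86% and 1.68% lower. The medians of the list were 0.37, 0.42 and 0.51, beside 0.47, 0.42 and 0.47 for all genes. Rb1, the retinoblastoma gene, was 1.89 FPKM in Myc, 2.07 in MycN, 2.01 in Minimal Myc and 2.17 in vector. E2f1, an activator E2f, was 34.3 FPKM in Myc, 33.9 in MycN, 44.7 in Minimal Myc and 28.8 in vector. E2f2, its relative, was read by NanoString as well, with a ratio to vector of 1.44 with Myc, 1.33 with MycN and 0.699 with Minimal Myc, against 1.35, 1.55 and 0.659 by FPKM. It was thus below vector in Minimal Myc by both assays, though its levels were low. They were 1.02 FPKM in Minimal Myc and 1.55 in vector. The NanoString signal was 51.2 in Minimal Myc and 73.3 in vector, where that of Cdk4 was 10488. All 20 S phase genes of the E2f target list passed the filter and lay above vector in each comparison on unscaled FPKM, as did 83.5%, 81.8% and 83.0% of all genes. Above the median of all genes were 17 of the 20 with Myc, 14 with MycN and 14 with Minimal Myc. At least 2-fold higher were 6 with Myc, 5 with MycN and 4 with Minimal Myc, beside 11.2%, 7.65% and 13.6% of all genes. Their medians were 0.65, 0.64 and 0.60, beside 0.47, 0.42 and 0.47 for all genes. Mybl2, an E2f-driven transcription factor, was 37.2 FPKM in Myc, 26.3 in MycN, 24.5 in Minimal Myc and 12.0 in vector. Ung, which removes uracil from DNA, was 12.6 FPKM in Myc, 10.0 in MycN, 16.0 in Minimal Myc and 4.26 in vector. Mcm6, a subunit of the replicative helicase, was 84.7 FPKM in Myc, 82.1 in MycN, 94.0 in Minimal Myc and 35.0 in vector. Mcm3, of the same helicase, was 99.7 FPKM in Myc, 115 in MycN, 87.8 in Minimal Myc and 43.0 in vector.

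Of the 14 ubiquitin ligase genes that act on G1 proteins, all passed the filter, with 2 at least 2-fold higher with Myc, 0 with MycN and 1 with Minimal Myc, beside 11.2%, 7.65% and 13.6% of all genes, and 0 lower. Their medians were 0.52, 0.51 and 0.62, beside 0.47, 0.42 and 0.47 for all genes. Skp1a, an adaptor shared by ligases that mark cyclin E and p27, was 155 FPKM in Myc, 119 in MycN, 140.2 in Minimal Myc and 70.1 in vector. Fzr1, an activator of the ligase that clears mitotic cyclins in G1, was 36.9 FPKM in Myc, 29.5 in MycN, 30.2 in Minimal Myc and 17.5 in vector. Cul4b, a cullin scaffold, was 18.5 FPKM in Myc, 16.2 in MycN, 28.5 in Minimal Myc and 13.1 in vector. With 1 library per group no list is called apart from all genes.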

How the data were processed

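RNA-seq was analysed in 4 libraries, 1 each for Myc, MycN, Minimal Myc and vector. RNA was selected for poly(A), made into strand-marked libraries and spiked with synthetic RNAs by cell number, per the labels' protocols; the spikes were not used here. The tools named in the submitters' processing notes are Cufflinks 2.2.0 and TopHat2 2.0.11, with build mm9 and no roles given. The authors deposited FPKM in 1 table of 26608 rows, of which 32 rows carry a NanoString signal whose normalization is not given. In the second deposited table the signal is FPKM multiplied by 1 factor per library. A gene's identical rows were counted once, and its differing rows added up. Kept were genes averaging 1 FPKM or more, without 310 small RNA genes. Differences are of log2(FPKM + 1); no test was possible with 1 library per group, and depth is unknown. Members and lists were chosen with earlier results of these data known. Listed genes were named when at least 2-fold from vector, up to 3 per list and comparison, largest first, with Ccna1, Ccnb1, Cdk1, Cdkn1a, Cdkn1b, Rb1 and E2f1 always; 1 gene that met this rule is not reported here. Genes of like profile are named for members whose libraries span 2-fold on that scale; Ccnd3 and Cdc25a met this. Symbols absent from the table were looked up among RefSeq synonyms. Alternatives were the scaled table, both centrings, a pseudocount of 0.1, no filter, 1.5-fold and the highest row of a gene. The calculation, in Python 3.11.15 with pandas 2.3.3, was tested on simulated data.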

Additional observations from a re-analysis of the deposited data

How the results depend on the processing

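Each group has 1 library of unknown depth, so only the choice of scale and threshold could be varied; no library could be left out of a comparison. No paired analysis was possible because each group has 1 library. Counts of members at least 2-fold different gave the same number with no filter on low values and with the highest row of a gene in all 12 counts. With a pseudocount of 0.1, Ccne2 passed 2-fold in Myc against vector, which made that count 1 in place of 0. In the scaled table the counts higher than vector were 10 with Myc, 2 with MycN and 5 with Minimal Myc, and the counts lower than Myc were 1 in MycN and 2 in Minimal Myc. Centring on all genes gave 0 members higher in Minimal Myc than in vector, beside 3.71% of all genes. Centring on housekeeping genes also gave 0, beside 2.29%. That centring put 1 member, Ccnd1, at least 2-fold lower in Minimal Myc than in vector, beside 9.18% of all genes. It also put 1, again Ccnd1, lower than in Myc, beside 2.57%. At 1.5-fold the counts higher than vector were 7 with Myc, 4 with MycN and 7 with Minimal Myc. At 1.5-fold, 1 was lower in MycN than in Myc, 1 higher and 2 lower in Minimal Myc than in Myc, and 2 higher in Minimal Myc than in MycN. These shifts follow from the construction of each setting. Of the 60 single differences, 4 uncalled ones crossed 0 when centred on all genes, 21 when centred on housekeeping genes and 6 in the scaled table. The only differences of 2-fold were those of Ccnd3 and Cdc25a in Minimal Myc against vector. Neither changed direction under these settings, but both fell below 2-fold when centred. Ccnd3 was then 0.62 on all genes and 0.33 on housekeeping genes, and Cdc25a 0.68 and 0.39.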
